A study of Mus musculus with 63 samples.

Results

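B cell identity genes were followed through all 63 libraries of a mouse macrophage RNA sequencing study. The set holds 9 genes, Cd79a, Cd79b, Ms4a1, Pax5, Ebf1, Pou2af1, Blk, Fcer2a and Cd22, chosen by their symbols as genes that mark or specify B cells, out of 56748 genes in the count table. All 9 passed the filter on low counts that left 22147 genes for testing. The libraries were made from polyadenylated RNA of peritoneal macrophages, drawn 72 h after an injection of 3% thioglycollate and left to adhere for 2 to 3 h before 18 h of culture with interferon-gamma (IFN-γ, 100 U) or vehicle alone.

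The animals were R1441C knock-in mice, which carry a Parkinson's disease-linked change in their own gene for the kinase Lrrk2 in every cell, or wild-type B6 mice, of both sexes, aged 18 to 21 months (old) or 2 to 3 months (young). With the IFN-γ label there were 5 libraries of old and 2 of young knock-in females, 5 of old and 3 of young wild-type females, 5 of old and 3 of young knock-in males, and 5 of old and 5 of young wild-type males. With the untreated label there were 5 of old and 5 of young knock-in females, 5 of old and 3 of young wild-type females, and 3 each of old and young knock-in and old and young wild-type males. All cells came from cavities that had received thioglycollate, so no library represents resting peritoneal cells. The labels do not say which libraries come from the same animal, so p-values measure the spread between these libraries, which may be partly technical.

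Each member has a known place in the B cell. Cd79a and Cd79b are the signalling chains that carry the B cell receptor to the surface, Ms4a1 is the surface protein CD20, and Cd22 is a sialic acid-binding receptor that dampens receptor signals. Ebf1 and Pax5 are transcription factors that set and hold the B cell programme, Pou2af1 is the coactivator of octamer-binding factors, Blk is a Src-family kinase downstream of the receptor, and Fcer2a is CD23, the low-affinity IgE receptor, which is high on follicular B cells and low on the B-1 cells that are common in the mouse peritoneal cavity. Macrophages adhere to plastic and most B cells do not, so B cell transcripts in such a culture are usually minor.

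Promoter windows from RefSeq (GRCm38.p6, 250 bases before to 50 after a start site) were found for 6 of the 9 members. The windows of Cd79a, Cd22 and Pou2af1 are shown because Cd79a and Cd22 lie on the same chromosome and differ below in how they vary between libraries, and Pou2af1 encodes the octamer cofactor. Capitals mark the EBF1 motif (TCCC, any 2 bases, then GGGA) and the E-box CAGGTG, searched on both strands, and the octamer ATGCAAAT was searched as well. The motifs did not overlap each other.
Cd79a, chr7:24897247-24897546, plus strand: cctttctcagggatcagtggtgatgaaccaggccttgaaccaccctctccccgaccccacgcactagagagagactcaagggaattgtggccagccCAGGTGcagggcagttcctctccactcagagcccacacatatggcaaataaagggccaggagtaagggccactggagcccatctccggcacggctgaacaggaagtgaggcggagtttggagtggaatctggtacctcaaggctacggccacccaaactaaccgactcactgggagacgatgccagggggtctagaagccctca
Cd22, chr7:30878979-30879278, minus strand: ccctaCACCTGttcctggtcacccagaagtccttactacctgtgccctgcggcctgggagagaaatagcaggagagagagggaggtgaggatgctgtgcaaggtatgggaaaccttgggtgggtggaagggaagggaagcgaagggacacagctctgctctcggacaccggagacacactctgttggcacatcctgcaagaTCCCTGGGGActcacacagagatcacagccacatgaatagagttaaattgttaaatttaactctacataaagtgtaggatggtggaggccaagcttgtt
Pou2af1, chr9:51213440-51213739, plus strand: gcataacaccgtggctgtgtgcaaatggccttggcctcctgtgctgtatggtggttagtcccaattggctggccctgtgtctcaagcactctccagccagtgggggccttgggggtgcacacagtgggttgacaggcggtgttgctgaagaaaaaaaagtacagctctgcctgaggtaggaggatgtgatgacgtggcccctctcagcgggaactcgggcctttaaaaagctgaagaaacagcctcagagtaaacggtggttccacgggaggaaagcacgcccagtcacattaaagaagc

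By exact match to these letters, the Cd79a window held an E-box and no EBF1 motif, the Cd22 window held both, and the Pou2af1 window held neither. A site that departs from the letters searched would be missed, so a window without a match may still hold a site. Among 32851 RefSeq windows, 20.2% held the E-box, 0.904% the EBF1 motif and 1.74% the octamer. The E-box was also in a window of Fcer2a, and the octamer was in none of the members' 9 windows. These matches describe letters in the reference and not binding.

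Before the results, the labels need a limit. IFN-γ response genes divided the libraries by the age label. Gbp2, a guanylate-binding protein induced by IFN-γ, was at 4372 CPM (read counts divided by TMM-adjusted library sizes) or more in the 36 libraries labelled old and at 883 CPM or less in the 27 labelled young, while it spanned 16.7 to 6663 CPM in libraries labelled IFN-γ and 13.5 to 7510 CPM in those labelled untreated. Every comparison of age or treatment below is therefore between labels, and whether the labels are those of the cells was not tested. Knock-in old IFN-γ females 4 and 5 held 1.69 and 1.55 CPM of the female transcript Xist, and 0.624 and 0.601 CPM of the Y-linked gene Ddx3y. The other female libraries held 120.1 CPM of Xist or more, and every male library held 33.9 CPM of Ddx3y or more, so this pair was low in both. Transcripts of the other sex were also seen at a lower level in some libraries, where Ddx3y reached 4.13 CPM (knock-in young untreated female 2), 4.37 CPM (knock-in young untreated female 5), 5.89 CPM (wild-type young IFN-γ female 1) and 8.93 CPM (wild-type young IFN-γ female 5). Xist reached 13.8 CPM (knock-in young untreated male 3), 13.4 CPM (wild-type young IFN-γ male 4) and 14.7 CPM (wild-type young IFN-γ male 5). The part of these libraries' mixed sex transcripts in the results was not tested. The 3 knock-in old untreated males carry a treatment field that names interferon-gamma against their titles, and were grouped by their titles. Total counts ran from 73.6 M, in wild-type young IFN-γ female 1, to 106.6 M per library. Genes of macrophages were high in every library, with 8 of them summing to 19818 to 33385 CPM in libraries labelled IFN-γ and to 18829 to 38483 CPM in those labelled untreated.

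Cd79a, a chain of the B cell receptor, is given for each library. In females labelled old, it was at 57.6, 59.0, 62.8, 12.3 and 13.0 CPM in knock-in IFN-γ libraries, against 6.06, 9.95, 12.3, 5.90 and 6.11 CPM in knock-in untreated libraries. In females labelled young, it was at 40.0 and 24.8 CPM in knock-in IFN-γ libraries, against 5.07, 6.39, 5.13, 4.37 and 5.37 CPM in knock-in untreated libraries. The lowest old knock-in IFN-γ female lay level with the highest untreated one, and the young groups did not overlap. In wild-type old females, it was at 61.1, 197, 54.5, 58.4 and 26.6 CPM with the IFN-γ label, against 6.47, 1.97, 1.42, 2.03 and 1.98 CPM without it. In wild-type young females, it was at 311, 62.7 and 50.2 CPM with the IFN-γ label, against 5.25, 1.54 and 2.08 CPM without it. Wild-type old IFN-γ female 2 and young IFN-γ female 1 stood far above the rest, and neither pair of wild-type female groups overlapped.

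The male libraries were read in the same way. In knock-in old males, Cd79a was at 26.7, 22.6, 8.89, 23.8 and 8.41 CPM with the IFN-γ label, against 4.03, 3.47 and 5.76 CPM without it. In knock-in young males, it was at 23.2, 9.51 and 9.48 CPM with the IFN-γ label, against 4.25, 4.43 and 4.17 CPM without it. The IFN-γ libraries spread widely within each of these groups, and all of them lay above the untreated ones. In wild-type old males, it was at 18.9, 24.9, 23.2, 4.92 and 5.48 CPM with the IFN-γ label, against 3.05, 2.37 and 1.64 CPM without it. In wild-type young males, it was at 15.6, 33.9, 30.8, 6.36 and 5.52 CPM with the IFN-γ label, against 2.54, 2.61 and 1.99 CPM without it. Libraries 4 and 5 were the low ones in both wild-type male groups, and neither pair of groups overlapped.

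**Figure D1:**
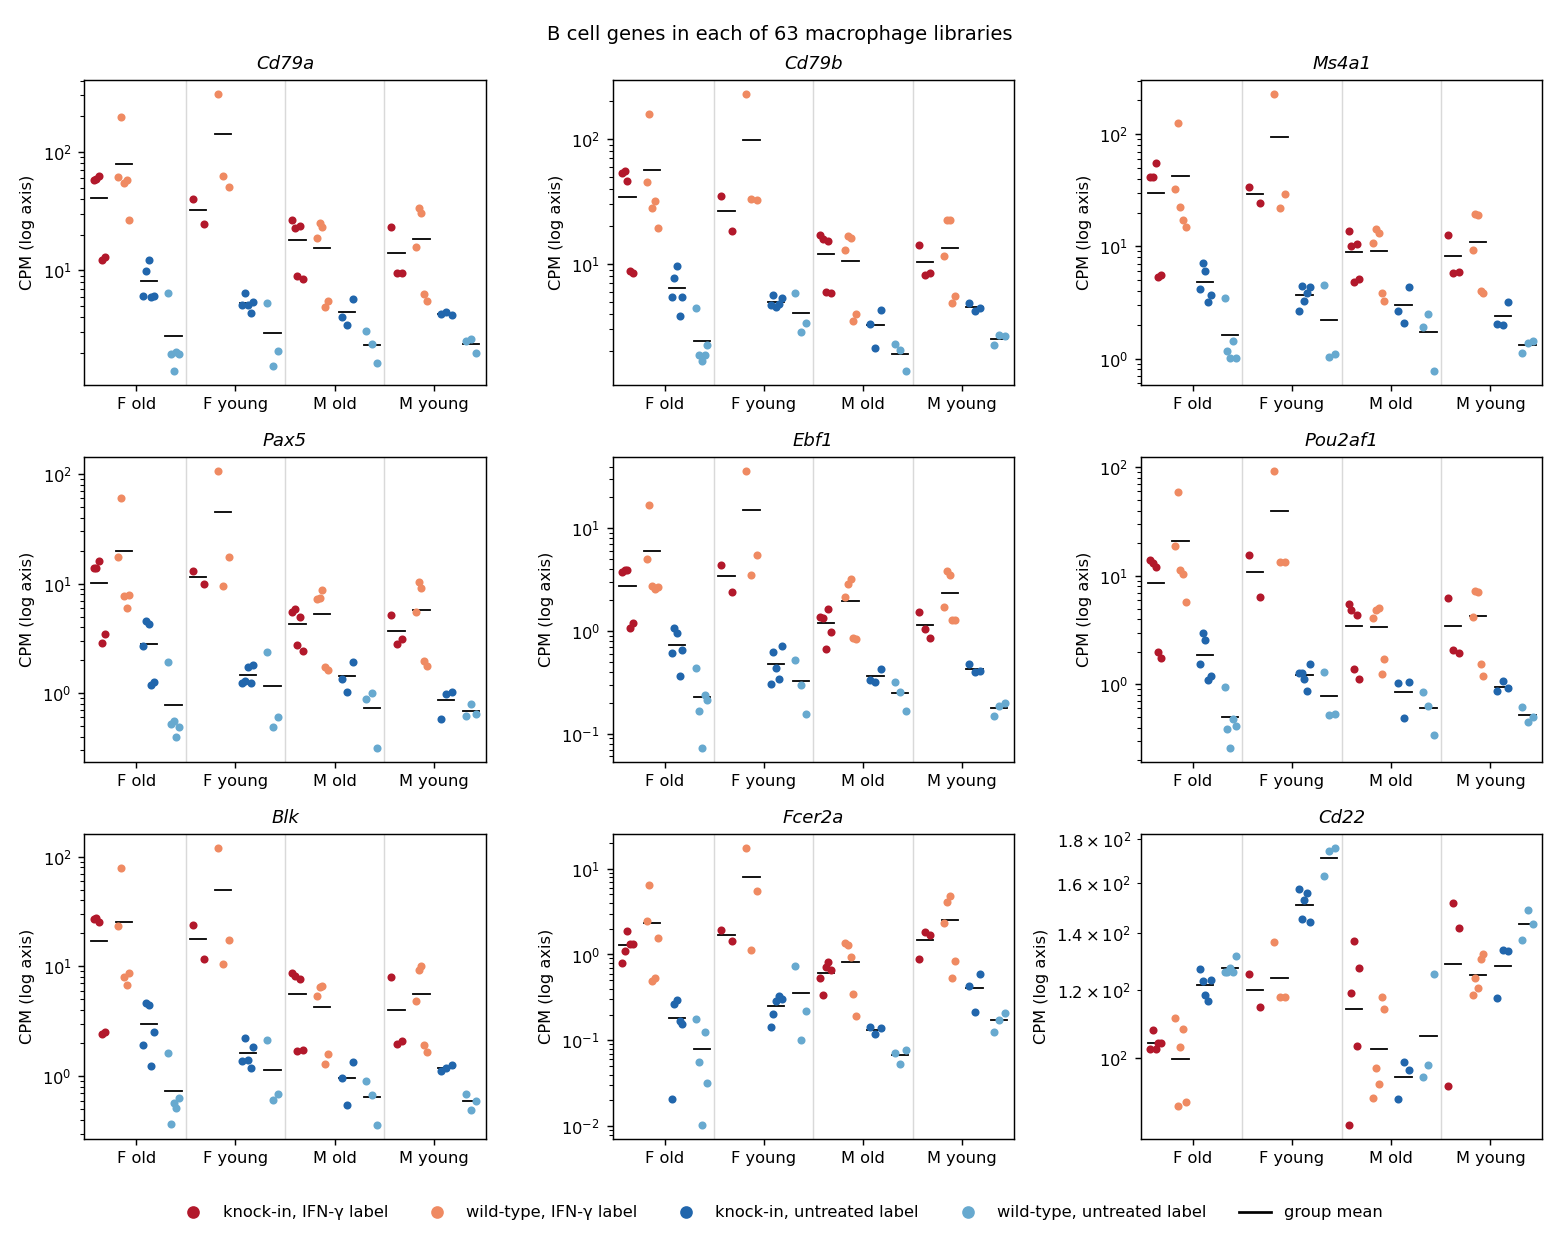
CPM (log axis) of the 9 genes in each of the 63 libraries, by sex (F, M) and labelled age, with knock-in and wild-type IFN-γ-labelled libraries left of the untreated ones; points are libraries and bars are group means. In 8 panels all IFN-γ-labelled libraries lie above the untreated ones of their genotype in 7 of the 8 strata, while Cd22 stays between 83.5 and 176 CPM everywhere. The share of all genes that part in this way was not computed.

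Compared per length, the members fell into an order. In libraries labelled IFN-γ, the median of the deposited FPKM (fragments scaled to gene length and library size) was 22.6 for Cd22, 16.9 for Cd79a, 11.6 for Cd79b, 2.92 for Blk, 2.20 for Ms4a1, 2.17 for Pou2af1, 0.819 for Pax5, 0.417 for Fcer2a and 0.247 for Ebf1. In untreated libraries, the medians were 25.1 for Cd22, 2.85 for Cd79a, 2.75 for Cd79b, 0.418 for Blk, 0.411 for Ms4a1, 0.349 for Pou2af1, 0.114 for Pax5, 0.0512 for Fcer2a and 0.0343 for Ebf1. The order of the 9 was thus the same under either label. Cd22 stood apart in untreated libraries, where its lowest level of 17.6 FPKM lay above the highest level of Cd79a, 8.63 FPKM. The ranges of all other neighbours in this order overlapped under either label.

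Libraries labelled IFN-γ were compared with those labelled untreated within each genotype, as the mean over the 4 strata of sex and age. In knock-in cells 8 of the 9 members rose, where 7.77% of all genes tested were called in either direction, 3.35% as higher. The log2 changes were 2.18 ± 0.33 for Cd79a (SE, adjusted p = 8.37e-06 by edgeR's quasi-likelihood test), 1.98 ± 0.32 for Cd79b, 2.23 ± 0.37 for Ms4a1, 2.13 ± 0.38 for Pax5, 1.98 ± 0.36 for Ebf1, 2.31 ± 0.37 for Pou2af1, 2.57 ± 0.43 for Blk and 2.40 ± 0.43 for Fcer2a. Cd22 changed by -0.07 ± 0.06 (adjusted p = 0.503) and was not called. The median over the 9 was 2.18, against -0.01 over all genes tested. In bulk RNA, fewer cells of a type and less RNA per cell cannot be told apart.

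In wild-type cells the same 8 members rose and Cd22 fell (-0.27 ± 0.05, adjusted p = 1.34e-04), where 31.3% of all genes were called, 15.4% as higher. Cd79a rose by a log2 change of 4.02 ± 0.36 (adjusted p = 5.63e-12), and Cd79b by 3.51 ± 0.35 (adjusted p = 1.14e-10). The transcription factors were at 4.24 ± 0.38 for Ebf1 and 3.96 ± 0.41 for Pax5, and the coactivator Pou2af1 at 4.14 ± 0.41. Ms4a1 (3.89 ± 0.41), the kinase Blk (4.12 ± 0.47) and Fcer2a (4.20 ± 0.45) lay in the same range. The median over the 9 was 4.02, against -0.01 over all genes. The calls in both genotypes held in every alternative run, and without wild-type IFN-γ females old 2 and young 1 the 8 wild-type changes were 2.90 to 3.67.

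Within strata, more members were called in females. Old knock-in females had 8 members called, with 6.55% of genes called, and young knock-in females had 9, with 21.9%. Old and young wild-type females had 9 each, with 20.1% and 16.6% of genes called, and their 8 rising members changed by 4.50 to 5.66 on the log2 scale. In knock-in males 0 of 9 were called, with 0.176% of genes called in the old and 0.0813% in the young stratum. The 8 members other than Cd22 were at 1.55 to 2.56 in old and 1.19 to 2.09 in young knock-in males. At an unadjusted p under 0.05, 9 of the 9 passed in old and 5 in young knock-in males, against 8.92% and 6.22% of all genes. In old wild-type males Cd79a, Cd79b and Ebf1 were called (2.89% of genes), and in young wild-type males Cd79a, Ebf1 and Fcer2a (0.438% of genes).

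In 7 of the 8 strata, all IFN-γ libraries lay above all untreated ones for each of the 8 members. In old knock-in females this held for Fcer2a alone, since library 4 or 5, the pair with little Xist, reached down into the untreated range for the other 7. The share of all genes whose groups part in this way was not computed, here or for the other groups given by library. The groups are small and the 8 members vary together (below), so these are not 8 separate observations. Without libraries 4 and 5 the mean change in knock-in cells was 2.31 for Cd79a and 2.10 for Ebf1. Leaving out knock-in young IFN-γ female 1, in a group of 2, ended the calls of the 9 members in young knock-in females, leaving out female 2 ended that of Fcer2a, and leaving out old IFN-γ females 1, 2 or 3 or old untreated female 1 ended those of Blk, Ebf1, Pax5 and Pou2af1 in old knock-in females. The Pax5 call there was also lost without untreated females 2, 4 or 5, and that of Fcer2a without IFN-γ female 3 or untreated female 1. Cd22 lost its call in young knock-in females without either IFN-γ library or any of untreated females 1 to 4, and in old wild-type females without IFN-γ female 2 or 5. In old wild-type males, leaving out any of IFN-γ libraries 1 to 3 or of the 3 untreated libraries ended the 3 calls. In young wild-type males, leaving out any of the 3 untreated libraries ended the 3 calls, IFN-γ male 2 those of Cd79a and Ebf1, and IFN-γ male 3 those of Cd79a and Fcer2a.

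**Figure D2:**
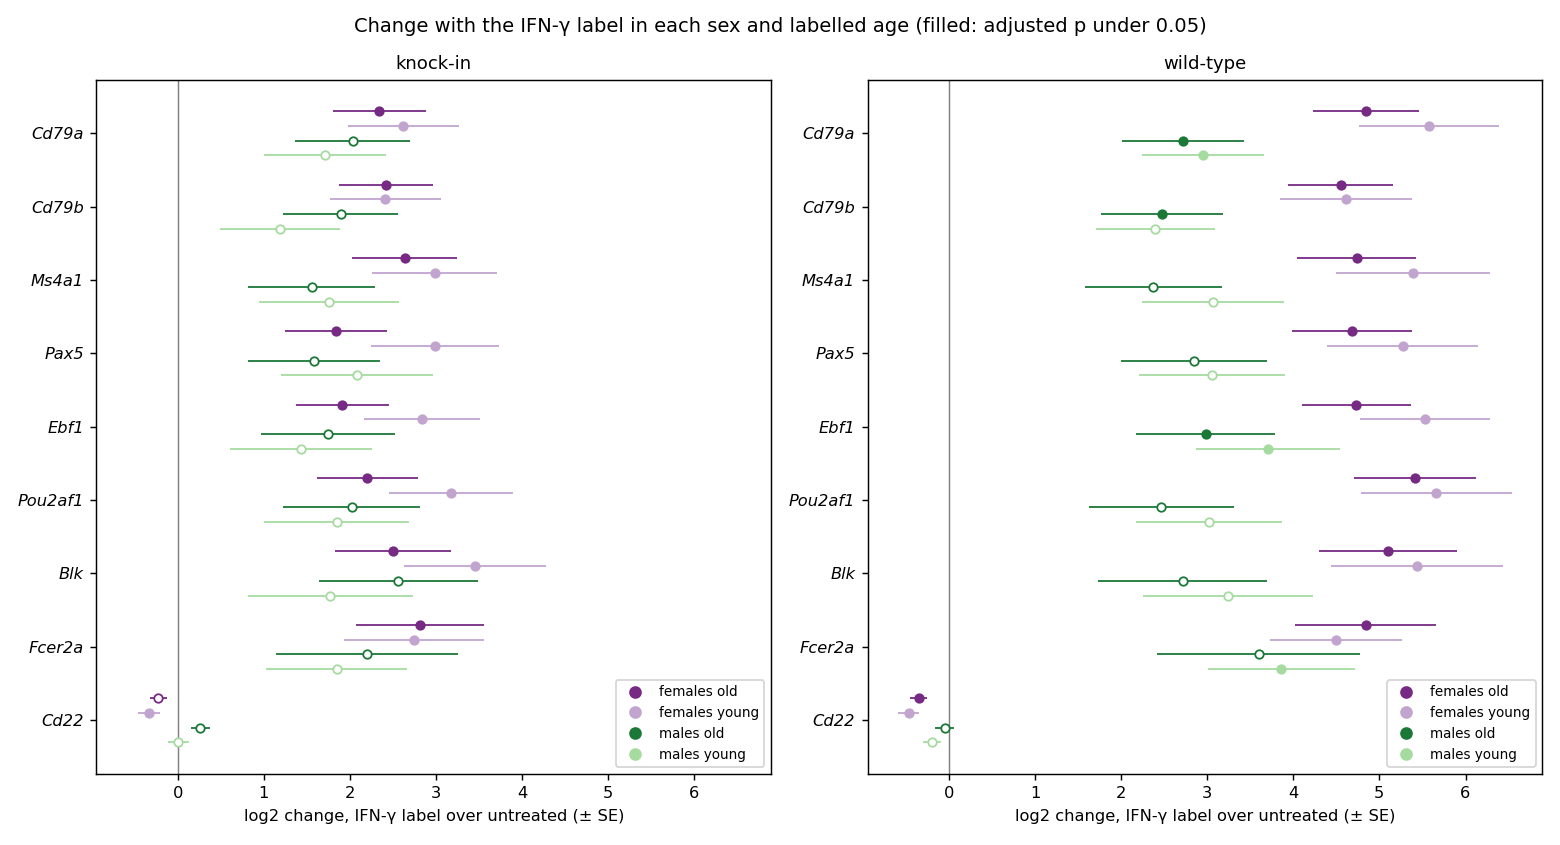
Log2 change (± SE) between IFN-γ-labelled and untreated libraries for each gene, in knock-in (left) and wild-type (right) cells, by sex and labelled age; filled points passed the adjusted p of 0.05. Wild-type females lie at 4.50 to 5.66 for 8 genes, and Cd22 lies between -0.47 and 0.26.

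The genotypes were then compared in this change. The rise with the IFN-γ label was smaller in knock-in cells for 6 members, by a log2 difference of -2.26 ± 0.56 for Ebf1 (adjusted p = 0.00767), -1.84 ± 0.46 for Cd79a (adjusted p = 0.00775), -1.53 ± 0.46 for Cd79b, -1.66 ± 0.52 for Ms4a1, -1.84 ± 0.56 for Pax5 and -1.83 ± 0.56 for Pou2af1. The share of genes called in this contrast was 11.9%, and 5.58% were called as lower. Blk (-1.55 ± 0.63, adjusted p = 0.095), Fcer2a (-1.80 ± 0.73, adjusted p = 0.0945) and Cd22 (0.19 ± 0.08, adjusted p = 0.0878) were not called. The count went to 2 without wild-type young IFN-γ female 1, to 3 without knock-in young IFN-γ female 2, and to 2 without the 3 knock-in old untreated males. That last run drops old knock-in males from the knock-in mean and keeps old wild-type males, so the strata are no longer matched. Ebf1 alone was called when libraries of a group with shared V segment usage (below) were summed.

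The genotypes were also compared within each treatment label. Among IFN-γ libraries, 5 members were lower in knock-in than in wild-type cells, where 22.3% of genes were called and 11.7% as lower. In IFN-γ-labelled young females, Ebf1 held 4.38 and 2.42 CPM in knock-in libraries, against 36.5, 3.55 and 5.56 CPM in wild-type ones. It was at 3.73, 3.94, 3.89, 1.06 and 1.19 CPM in knock-in old IFN-γ females, against 5.02, 16.9, 2.73, 2.58 and 2.65 CPM in wild-type ones. The groups overlapped at both ages, with the top of each wild-type group set by a single library.

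In males the Ebf1 groups overlapped as well. In IFN-γ-labelled old males, Ebf1 was at 1.36, 1.34, 0.674, 1.65 and 0.986 CPM in knock-in libraries, against 2.12, 2.86, 3.19, 0.85 and 0.834 CPM in wild-type libraries. In young males, it was at 1.55, 1.04 and 0.845 CPM in knock-in libraries, against 1.72, 3.85, 3.52, 1.27 and 1.28 CPM in wild-type libraries. Averaged over the strata, Ebf1 was lower by a log2 change of -1.25 ± 0.28 (adjusted p = 0.00156), Fcer2a by -1.07 ± 0.31 (adjusted p = 0.0103), Pax5 by -0.97 ± 0.33 (adjusted p = 0.0308), Cd79a by -0.81 ± 0.31 (adjusted p = 0.0475) and Pou2af1 by -0.86 ± 0.32 (adjusted p = 0.049). The median over the 9 was -0.81, against -0.02 over all genes.

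These genotype calls rested on few libraries. Without wild-type young IFN-γ female 1, Ebf1 alone was called, and without it and old IFN-γ female 2, Ebf1 was at -0.59 (adjusted p = 0.0347) while Blk was at 0.20 and Ms4a1 at 0.05, not called. Without knock-in old IFN-γ females 4 and 5, 2 members were called. The count was 2 or 3 without any single library among knock-in old IFN-γ females 4 and 5, knock-in young IFN-γ females 1 and 2, knock-in old IFN-γ males 3 and 5, knock-in young IFN-γ males 3 and 4, wild-type old IFN-γ female 2, wild-type old IFN-γ males 1 to 3 and wild-type young IFN-γ males 1 to 3. In the strata, only Ebf1 (-2.16 ± 0.67, adjusted p = 0.0396) and Fcer2a (-2.24 ± 0.72, adjusted p = 0.0463) in young females were called, where 6.74% of genes were. In old females, old males and young males 0 of 9 were called, with 5.81%, 6.64% and 0.149% of genes called.

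Among untreated libraries no member was called. The log2 change of knock-in over wild-type was 0.73 to 1.03 for the 8 members other than Cd22, with Cd79a at 1.03 ± 0.34 (adjusted p = 0.391), and Cd22 was at -0.14 ± 0.06 (adjusted p = 0.522). Only 0.0497% of genes were called in this contrast by edgeR. At an unadjusted p under 0.05, 6 of the 9 passed, against 7.71% of all genes, DESeq2 called 0, and a fit of the untreated libraries alone called 4. Cd79a of untreated young males lay at 4.25, 4.43 and 4.17 CPM in knock-in libraries, against 2.54, 2.61 and 1.99 CPM in wild-type libraries. These groups did not overlap, and no member was called in this stratum, where 0.0135% of genes were. Cd79a did not overlap in untreated old males either, and it overlapped in untreated old and young females. The share of all genes whose groups part in this way was not computed.

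The sexes were compared in the same way. Among IFN-γ libraries 8 members were higher in females than in males, where 25.2% of genes were called and 12.5% as higher. Log2 changes were 2.36 ± 0.37 for Blk (adjusted p = 4.76e-06), 2.23 ± 0.34 for Ms4a1, 2.21 ± 0.32 for Pou2af1 (adjusted p = 8.7e-07), 2.05 ± 0.30 for Cd79b, 1.93 ± 0.33 for Pax5, 1.92 ± 0.30 for Cd79a, 1.77 ± 0.28 for Ebf1 and 1.11 ± 0.30 for Fcer2a (adjusted p = 0.00572). Cd22 was at -0.07 ± 0.05 (adjusted p = 0.369). The median over the 9 was 1.93, against 0.00 over all genes. Fcer2a lost its call without wild-type young IFN-γ female 1 (0.79, adjusted p = 0.051). The other 7 held in every alternative.

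Blk showed the sex difference by library. In knock-in old IFN-γ cells, it was at 27.1, 27.3, 25.2, 2.43 and 2.53 CPM in females, against 8.71, 8.21, 1.70, 7.75 and 1.75 CPM in males. In wild-type old IFN-γ cells, it was at 23.3, 79.3, 7.94, 6.79 and 8.76 CPM in females, against 5.37, 6.52, 6.62, 1.29 and 1.60 CPM in males. The knock-in groups overlapped and the wild-type ones did not. By strata, 0 members were called in old and 0 in young knock-in cells (1.62% and 8.36% of genes), where 7 and 5 passed at an unadjusted p under 0.05, against 18.5% and 26.2% of all genes. In wild-type cells 7 were called in old and 8 in young ones (6.52% and 9.46% of genes).

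Among untreated libraries Cd22 alone was higher in females (0.28 ± 0.06, adjusted p = 0.00207), where 1.53% of genes were called. The other 8 were at 0.26 to 0.80 and not called. The change with the IFN-γ label was larger in females than in males for Cd79a (1.49 ± 0.45, adjusted p = 0.0455), Cd79b (1.51 ± 0.45, adjusted p = 0.0436) and Ms4a1 (1.75 ± 0.52, adjusted p = 0.0415), and Cd22 differed by -0.35 ± 0.08 (adjusted p = 0.00966), where 4.31% of genes were called. The 3 positive calls lay just under the threshold. The count of the 4 went to 2 or 1 when any of 35 of the 63 libraries was left out. It went to 0 without the 3 knock-in old untreated males, a run that empties their group. The stratum of old knock-in males then leaves the mean, so the female and male strata are no longer matched.

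**Figure D3:**
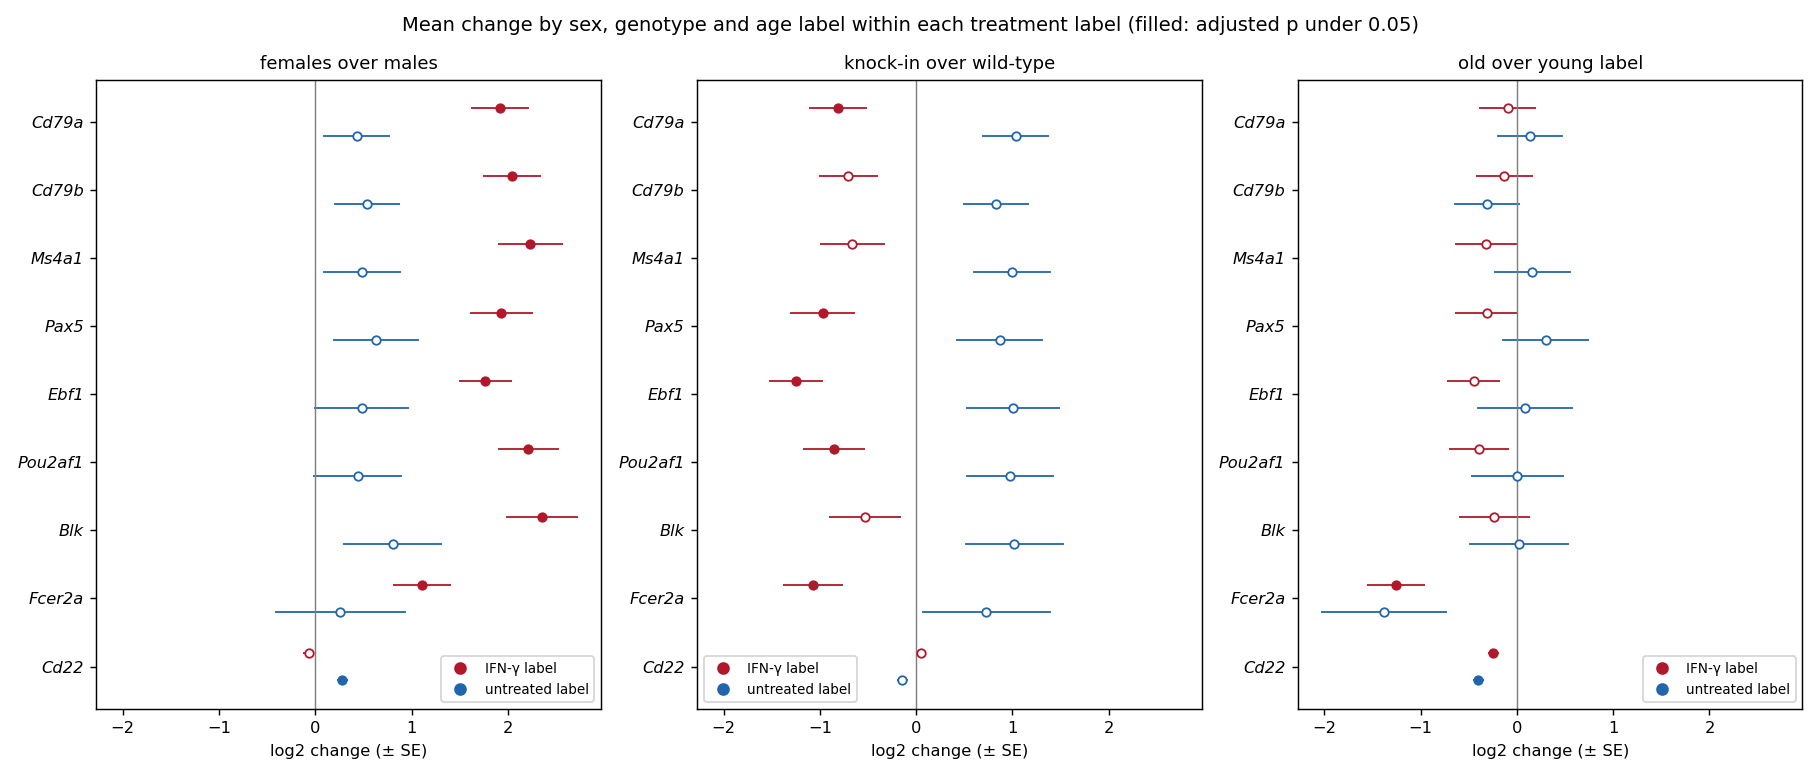
Log2 change (± SE) of each gene for females over males, knock-in over wild-type and old over young label, within IFN-γ-labelled (red) and untreated libraries (blue); filled points passed the adjusted p of 0.05. Blk reaches 2.36 by sex among IFN-γ-labelled libraries, 5 genes are lower in knock-in cells there, and Fcer2a and Cd22 are the 2 filled genes for the age label.

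Cd22 and Fcer2a differed by the age label. Among untreated libraries, Cd22 was at 127, 123, 118, 116 and 123 CPM in old knock-in females, against 157, 145, 153, 156 and 144 CPM in young ones. It was at 126, 126, 127, 126 and 132 CPM in old wild-type females, against 163, 175 and 176 CPM in young ones. No library of these old groups reached a young one. In untreated males, Cd22 was at 89.6, 98.7 and 96.7 CPM in old knock-in libraries, against 117, 134 and 133 CPM in young ones. It was at 94.8, 97.9 and 125 CPM in old wild-type males, against 137, 149 and 143 CPM in young ones. Here too the groups did not overlap, and Cd22 was called lower in all 4 strata, where 44.8% of genes were called in knock-in females, 44.5% in wild-type females, 32.1% in knock-in males and 36.9% in wild-type males.

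Averaged over the strata, Cd22 was lower with the old label by -0.40 ± 0.06 among untreated libraries (adjusted p = 1.15e-08) and by -0.25 ± 0.05 among IFN-γ libraries (adjusted p = 8.61e-05). The share of genes called was 60.7% and 63.4%, so that a called gene was more common than an uncalled one. Fcer2a was lower by -1.26 ± 0.30 among IFN-γ libraries (adjusted p = 2.93e-04) and at -1.38 ± 0.65 among untreated ones (adjusted p = 0.0632). The change among untreated libraries was called by DESeq2, by a fit of the untreated libraries alone (-1.37), without wild-type young untreated female 4 (-1.49) and without wild-type IFN-γ females old 2 and young 1 (-1.38). The other 7 members lay between -0.45 and -0.10 among IFN-γ libraries and between -0.31 and 0.30 among untreated ones, not called. By strata of IFN-γ libraries, 0 members were called in knock-in females and 0 in knock-in males (49.4% and 35.5% of genes). In wild-type females Ebf1 (-1.34), Fcer2a (-1.79) and Cd22 (-0.31) were called lower, and in wild-type males Fcer2a (-1.59) and Cd22 (-0.29), where 37% and 39.4% of genes were called. The change with the IFN-γ label was not called as different between the age labels for any member (0 called of 9 by edgeR, 0 at an unadjusted p under 0.05 against 12.7% of all genes, 0 by DESeq2), where 0.497% of genes were called.

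Fcer2a, the CD23 gene, varied apart from the others in some groups. In IFN-γ-labelled males, it was at 0.535, 0.34, 0.718, 0.822 and 0.664 CPM in old knock-in libraries, against 0.888, 1.83 and 1.70 CPM in young ones. It was at 1.36, 1.30, 0.939, 0.348 and 0.193 CPM in old wild-type libraries, against 2.30, 4.06, 4.76, 0.536 and 0.83 CPM in young ones. The knock-in groups did not overlap, and no member was called in this stratum, where 35.5% of genes were. The wild-type groups overlapped. In old IFN-γ females, Fcer2a was at 0.804, 1.10, 1.90, 1.31 and 1.34 CPM in knock-in libraries, against 2.48, 6.47, 0.497, 0.526 and 1.55 CPM in wild-type ones, so that knock-in females 4 and 5 were low for Cd79a and not for Fcer2a. As a share of Cd79a CPM within a library, Fcer2a ran from 0.901% to 19.2% (median 5.65%, n = 33) with the IFN-γ label and from 0.339% to 14.1% (median 3.49%, n = 30) without it. Among untreated libraries Fcer2a rested on few reads, down to a count of 1.

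The members other than Cd22 varied together from library to library. Pearson's r of log2 CPM over the 33 IFN-γ libraries was 0.61 to 0.988 for their 28 pairs (median 0.957), and 0.366 to 0.947 over the 30 untreated ones (median 0.894). Cd22 had r of -0.302 to 0.125 with the other 8 among IFN-γ libraries and -0.149 to 0.307 among untreated ones. These are descriptions over libraries of both genotypes, sexes and age labels, so differences between groups enter r. Total counts ran from 73.6 M, in wild-type young IFN-γ female 1, to 106.6 M. As a share of Cd79a, Pax5 had a median of 29.8% with the IFN-γ label and 29.5% without it, Pou2af1 21.7% and 22.2%, and Ebf1 9.75% and 9.45%. The medians were 71.6% and 91.1% for Cd79b, 57.9% and 62.9% for Ms4a1, and 30.4% and 28.1% for Blk. Cd22 by contrast was at a median of 399% of Cd79a with the IFN-γ label and 3106% without it. Which cells of the cultures hold the Cd22 transcript was not tested, so its changes cannot be read as those of B cells.

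Among the tested genes outside the set whose log2 CPM was most like the members' mean over the 63 libraries were Btla (r = 0.981), Fam169b (0.981), Cacna1i (0.981), Zfp831 (0.979), Fcmr (0.975), Fcrla (0.974) and Spib (0.973). Btla is an inhibitory receptor of lymphocytes and Spib an Ets-family factor of B cells. Btla changed with the IFN-γ label by 1.71 ± 0.31 in knock-in cells (adjusted p = 2.05e-04) and 3.53 ± 0.34 in wild-type cells (adjusted p = 3.27e-11). Likeness over both labels favours genes that change with the label, so this change is not a separate result. Within a label, the r of Btla was 0.985 over the 33 IFN-γ libraries and 0.881 over the 30 untreated ones.

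V segments of immunoglobulin genes gave a separate view of the libraries, since the mix of V segments differs between the B cells of individual animals. For the 33 IFN-γ libraries, 1939 to 58063 counts fell on 348 V segments, and the shares of the segments, each less its mean over libraries, were correlated between libraries. Pairs were called linked where r was above 0.917, the highest r between libraries that differ in genotype or sex. By this rule 14 of 57 pairs within a group were linked, and so were 20 of 65 pairs that differ in the age label alone. The rule was chosen after the data were seen, and the shares of a library's segments sum to a whole.

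Linking joined the 33 libraries into 12 sets, 3 of knock-in females, 3 of knock-in males, 4 of wild-type females and 2 of wild-type males. In the set of wild-type old IFN-γ female 2 and young IFN-γ female 1 it was at 197 and 311 CPM. In the set of wild-type male libraries numbered 4 and 5, old and young, it was at 4.92 to 6.36 CPM, and in the set of the other wild-type males at 15.6 to 33.9 CPM. Over the 10 sets with more than 1 library, the highest over the lowest Cd79a had a median of 1.38-fold and a maximum of 2.53-fold. A set cannot cross genotype or sex by this rule, and over all libraries of a genotype and sex, which are more than those of a set, the range was 5.12-fold in knock-in females, 11.7-fold in wild-type females, 3.17-fold in knock-in males and 6.90-fold in wild-type males. For Fcer2a the median within sets was 2.67-fold and the maximum 5.07-fold, and over a genotype and sex the range was 2.43-fold in knock-in females, 35.4-fold in wild-type females, 5.38-fold in knock-in males and 24.6-fold in wild-type males. Whether linked libraries share animals was not tested. The fits count them as separate libraries, so their p-values are too small if they do.

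**Figure D4:**
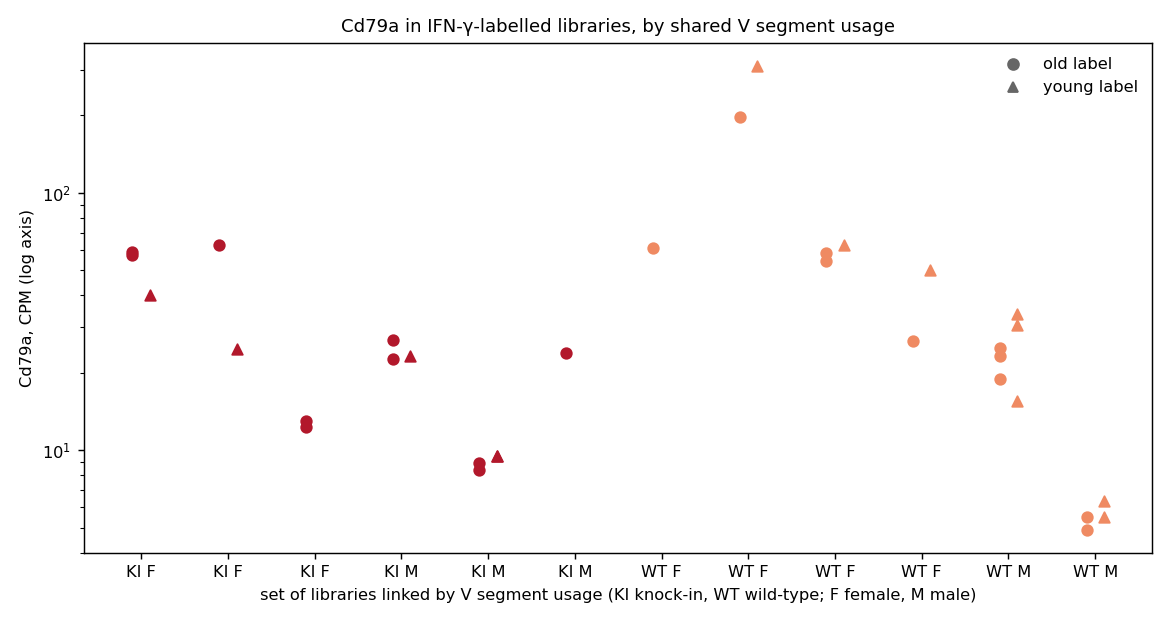
Cd79a (CPM, log axis) of each IFN-γ-labelled library, placed by its set of linked V segment usage, with knock-in sets left of wild-type ones; circles are libraries labelled old and triangles young. Sets with several libraries differ in how far these spread, from 12.3 and 13.0 CPM in the third set to 62.8 (old) and 24.8 CPM (young) in the second.

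Cd79a and Gbp2 set beside each other show how the labels part. Gbp2 split the libraries left and right by the age label, and Cd79a split them up and down by the treatment label. Of all pairs of an IFN-γ and an untreated library, 95.9% had the higher Cd79a in the IFN-γ library, while 55.4% of pairs of an old and a young library had the higher value in the old one. For Ebf1 these shares were 98.8% and 52.2%, for Fcer2a 97.2% and 35.9%, and for Cd22 25.9% and 13.8%.

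**Figure D5:**
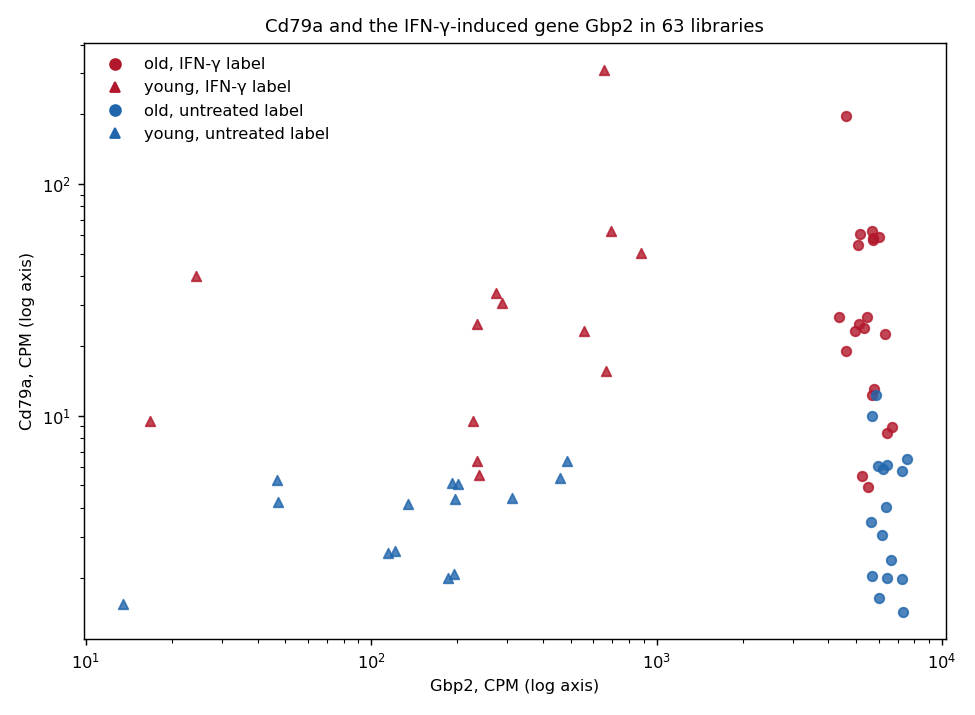
Cd79a against Gbp2 (CPM, log axes) in the 63 libraries; red marks the IFN-γ label, blue the untreated label, circles old and triangles young. Libraries labelled old lie at 4372 CPM of Gbp2 or more and those labelled young at 883 CPM or less, whereas the red points lie above most blue ones in Cd79a.

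Other genes of B cells followed the members in part. Between the treatment labels, 10 of 14 genes of B cell surface and homing rose in knock-in cells and 12 in wild-type cells (medians 1.70 and 3.42), with values in wild-type cells for the surface protein gene Ly6d (3.91 ± 0.31), the BAFF receptor Tnfrsf13c (3.95 ± 0.38) and Vpreb3 (3.46 ± 0.38). Of 10 B cell transcription factors, 5 rose in knock-in and 7 in wild-type cells (medians 0.48 and 0.58), with Spib at 3.29 ± 0.38, the Ikaros-family gene Ikzf3 at 3.80 ± 0.44 and Bach2 at 1.56 ± 0.23 in wild-type cells. Of 16 genes of receptor signalling, 3 rose in knock-in cells, and 9 rose and 1 fell in wild-type cells (medians 0.06 and 0.19). The complement receptor Cr2 (4.01 ± 0.43) and the scaffold Bank1 (2.36 ± 0.26) were among those that rose in wild-type cells. Several genes of this list are also expressed by macrophages.

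Of 7 genes tied to peritoneal B-1 cells, 4 rose in both genotypes and Cd9 fell in wild-type cells (medians 1.77 in knock-in and 2.41 in wild-type cells). In wild-type cells Fcrl5, an Fc receptor-like protein, was at 3.74 ± 0.49, the checkpoint receptor Ctla4, which T cells also express, at 4.02 ± 0.62, and the tetraspanin Cd9, which macrophages also express, at -0.58 ± 0.08. Of 8 plasma cell genes, 2 rose in knock-in cells, and 5 rose and 1 fell in wild-type cells (medians 0.34 and 0.96), with Mzb1 at 3.88 ± 0.47, the factor Irf4 at 1.67 ± 0.22 and Sdc1, the plasma cell marker CD138, at -0.72 ± 0.14 in wild-type cells. Among IFN-γ libraries, 13 of the 14 surface genes, 7 of the 10 factors and 4 of the 7 B-1 genes were higher in females, and 4, 3 and 0 were lower in knock-in cells. Of the B-1 genes, 1 was lower in females and 1 higher in knock-in cells. Of the 16 receptor signalling genes, 6 were higher in females, and 5 were lower and 1 higher in knock-in cells. Of the 8 plasma cell genes, 3 were higher and 1 lower in females, and 3 were lower and 2 higher in knock-in cells. Of all genes, 12.5% were higher and 12.6% lower in females, and 11.7% were lower and 10.7% higher in knock-in cells.

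Markers of other cells moved with the IFN-γ label too, and their part in the members' change was not tested. Of 10 T cell genes, 5 rose in knock-in cells and 10 in wild-type cells (medians 1.4 and 3.38), with Cd3d at 3.58 ± 0.35, Cd8b1 at 4.19 ± 0.45 and Cd8a at 3.88 ± 0.41 in wild-type cells, and their summed level was 3.39 to 72.1 CPM in IFN-γ libraries and 2.67 to 9.55 CPM in untreated ones. Of 8 mast cell genes, 0 rose in knock-in and 8 in wild-type cells (medians 0.71 and 2.65), with the stem cell factor receptor Kit at 2.02 ± 0.25, the protease Mcpt4 at 3.80 ± 0.49 and the IgE receptor chain Fcer1a at 3.13 ± 0.45 in wild-type cells, at sums of 1.61 to 124.8 CPM and 1.81 to 12.1 CPM. All 5 red cell genes rose in both genotypes (medians 3.53 in knock-in and 3.36 in wild-type cells), with Hba-a1 at 3.34 ± 0.70, Hba-a2 at 3.36 ± 0.70 and Hbb-bs at 3.45 ± 0.73 in wild-type cells, at sums of 1.15 to 362 CPM and 0.766 to 18.6 CPM. These 5 were also higher in females among IFN-γ libraries, as were 3 T cell genes and 1 mast cell gene. All 8 mast cell, 6 T cell and 0 red cell genes were lower in knock-in cells there.

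Of 6 NK cell genes, 2 rose in knock-in and 3 in wild-type cells (medians -0.13 and 0.75). In wild-type cells Eomes was at 3.62 ± 0.30, Nkg7 at 2.95 ± 0.33 and Klrd1 at 0.87 ± 0.25 (sums of the 6 genes of 0.324 to 4.03 CPM in IFN-γ and 0.175 to 1.96 CPM in untreated libraries). Of 6 dendritic cell genes, Zbtb46 fell in knock-in cells and Flt3 and Clec9a rose in wild-type cells, where Zbtb46, like Retnlg and Itgam, is named after its values were seen (sums of 2.89 to 160 CPM and 2.88 to 203 CPM). Of 4 tested neutrophil genes, Retnlg fell in knock-in cells and 0 were called in wild-type cells (sums of 8.75 to 74.8 CPM and 11.2 to 77.4 CPM). Of 5 mesothelial genes, 4 fell in knock-in cells and Krt19 fell in wild-type cells (sums of 0.224 to 7.82 CPM and 0.996 to 14.6 CPM). Of the 8 macrophage genes, 0 were called in knock-in cells, and in wild-type cells Adgre1 and Itgam rose and Cd68 and Lyz2 fell, by 0.30 or less on the log2 scale.

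Genes next to the members on the chromosome were examined for a change shared by position, with GENCODE M21 used for which genes neighbour each other. Of 18 protein-coding neighbours 16 were tested, and in wild-type cells the IFN-γ label went with 5 that rose and 1 that fell, or 37.5% called against 31.3% of all genes. Scn4a, a muscle sodium channel gene beside Cd79b on the same strand, was at 3.28 ± 0.52 in knock-in (adjusted p = 2.41e-05) and 4.04 ± 0.55 in wild-type cells (adjusted p = 1.64e-07), and ran from 0.184 to 26.5 CPM with the label against 0.0576 to 0.986 CPM without it. Fam167a beside Blk was at 1.65 ± 0.45 in knock-in and 2.88 ± 0.45 in wild-type cells. Mag, which lies beside Cd22 and encodes a related sialic acid-binding protein, was at -0.31 ± 0.09 in knock-in (adjusted p = 0.0232) and -0.44 ± 0.09 in wild-type cells (adjusted p = 9.56e-05), lower as Cd22 was in wild-type cells.

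On the other side of Cd22, the fatty acid receptor Ffar1 rose by 0.96 ± 0.19 in wild-type cells. The neighbours of Cd79a, Rps19 (0.01 ± 0.07) and Arhgef1 (-0.03 ± 0.04), and of Ebf1, Rnf145 (0.07 ± 0.05) and Clint1 (0.02 ± 0.03), were not called in wild-type cells. In knock-in cells Arhgef1 was at 0.14 ± 0.04 (adjusted p = 0.044). Of 8 genes that overlap a member, 1 was tested, 5730488B01Rik, which lies in Pax5 on the opposite strand. It held at most 44 counts in a library, and its highest level was 0.485 CPM among IFN-γ libraries and 0.0488 CPM among untreated ones. Its log2 change with the label was 1.99 ± 1.06 in knock-in cells (adjusted p = 0.267), not called, and 4.78 ± 0.99 in wild-type cells (adjusted p = 1.14e-04), called. The library kit keeps the strand, but the strand setting of the counting is not given in the sources used here, so reads of genes on opposite strands cannot be told apart.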

How the data were processed

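The authors deposited gene counts and FPKM for 63 libraries. Reads were aligned with STAR 2.7.9a to GRCm39, with DESeq2 1.40.2 also named, per the submitters' processing notes. For the counter, annotation and strand setting, the sources used here give nothing. Counts as deposited by the authors were tested with edgeR 4.0.16 in R 4.3.3: TMM scaling, a filter on low counts by the 16 groups, and a quasi-likelihood fit over 22147 genes with p adjusted over all of them (threshold 0.05). CPM were computed from the counts, and log2 CPM used a prior count of 2. Deposited FPKM served only for levels between genes. The procedure was tested on simulated data with independent libraries, which cannot show how it does where libraries share animals. The members, lists and tests were chosen with earlier results of these data known. The genes named are the members, the 8 genes most like their mean, tested neighbours, label-check genes and up to 3 genes per list by smallest p in the wild-type IFN-γ contrast. A gene that this rule names is not reported here. Alternatives were DESeq2 1.42.0, its size factors in edgeR, no filter, the compared libraries alone, a replicate block and each library left out. Others were added after the data were seen, namely leaving out doubtful libraries and summing libraries with shared V segment usage.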

Additional observations from a re-analysis of the deposited data

Results flagged for a closer look

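Among 72 sets of a member in 1 of the 8 groups of 5 libraries, 13 held a library far from the others, and 12 of these came from 2 libraries. Chance flags about 1 set in 20, but the members vary together and are not independent sets. In wild-type old IFN-γ female 2, Cd79a was at 197 CPM (26.6 to 61.1 CPM in the other 4 libraries), Cd79b at 160 CPM, Ms4a1 at 127 CPM, Pax5 at 60.6 CPM, Pou2af1 at 58.8 CPM, Blk at 79.3 CPM and Ebf1 at 16.9 CPM. In wild-type old untreated female 1, Cd79a was at 6.47 CPM (1.42 to 2.03 CPM in the others), Cd79b at 4.44 CPM, Ms4a1 at 3.44 CPM, Pax5 at 1.94 CPM and Blk at 1.61 CPM. Cd22 was at 132 CPM in wild-type old untreated female 5 (126 to 127 CPM in the others).

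The change with the IFN-γ label differed between knock-in and wild-type cells, by a test of the difference, for Cd79a (-1.84), Cd79b (-1.53), Ms4a1 (-1.66), Pax5 (-1.84), Ebf1 (-2.26) and Pou2af1 (-1.83). It differed between females and males for Cd79a (1.49), Cd79b (1.51), Ms4a1 (1.75) and Cd22 (-0.35).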

How the results depend on the processing

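No called change of a member turned its direction under the alternatives run. The count of members called was 8 for the IFN-γ label in knock-in cells and 9 in wild-type cells with any library left out. For the difference of that change between females and males, 4 members were called, against 7 by DESeq2, 1 without the filter, 1 without wild-type IFN-γ females old 2 and young 1, 0 without the 3 knock-in old untreated males and 0 with libraries of shared V segment usage summed, and 1 to 5 with any library left out. For its difference between knock-in and wild-type cells, 6 were called, against 2 without that pair of females, 2 without those males and 1 with libraries summed, and 2 to 7 with any library left out. Without those males, both differences lack the stratum of old knock-in males, so their strata are no longer matched. For knock-in over wild-type among IFN-γ libraries, 5 were called, against 3 without the filter, 3 without those males, 2 without knock-in old IFN-γ females 4 and 5, 2 in a fit of the compared libraries alone, 1 without that pair of wild-type females and 1 with libraries summed, and 1 to 6 with any library left out. Among untreated libraries it was 0, against 4 in a fit of these libraries alone, and 0 with any library left out. For old over young among untreated libraries 1 was called, against 2 by DESeq2, 2 without that pair of females and 2 in a fit of these libraries alone, and 1 to 2 with any library left out. Among IFN-γ libraries it was 2, and 2 to 3 with any library left out. For females over males, 7 to 8 were called among IFN-γ libraries and 1 to 1 among untreated ones with any library left out, and the IFN-γ difference between age labels had 0 to 0. Calls over all genes moved as well in some runs. With libraries summed, they went from 4943 to 1440 for knock-in over wild-type among IFN-γ libraries. They went from 2644 to 462 for the difference of the IFN-γ change between genotypes, and from 954 to 94 for that between sexes. For knock-in over wild-type among IFN-γ libraries, they were 4920 without knock-in old IFN-γ females 4 and 5. In the fit of the compared libraries alone they were 5190. The causes were not tested. With the replicate number as a block, knock-in over wild-type among IFN-γ libraries had 2 members called. The numbers were not taken to pair libraries, since not every pair's correlation of deviations was over 0.1: 11 of 26 were across treatment (-0.151 to 0.411), 17 of 26 across age (-0.585 to 0.474), 7 of 26 across genotype and 13 of 25 across sex. As a hint from the data, 28 of 52 libraries correlated best with their own number across treatment, 25 of 52 across age, 17 of 52 across genotype and 18 of 50 across sex. Libraries of different genotype or sex come from different animals, and the level expected by chance was not computed. The rule on 0.1 cannot show that libraries are unpaired, and the main fit leaves out any pairing across treatment or age that may exist. The planned joining of libraries that differ by less than sampling noise was not run, as the lowest chi-square per degree of freedom over 1953 pairs was 6.86. Depth limits Fcer2a most, with counts down to 1.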
